A study of Mus musculus with 6 samples.

Results

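The mitochondrial chromosome of the mouse carries 37 genes, and all of them were found by Ensembl identifier among the 54232 genes counted in each heart library. They comprise 13 protein-coding genes, 2 ribosomal RNA (rRNA) genes and 22 transfer RNA (tRNA) genes, of which 28 lie on the plus strand and 9 on the minus strand of the reference. Ventricle RNA came from wild-type C57BL/6J mice on western diet (WD). The mice had eaten WD for 15 weeks before they were needle-fed either Tributyrin, a triglyceride of butyrate, at 5 g/kg body weight or vehicle, which the labels name PBS, for 3 weeks in cycles of 2 days on and 2 days off. There were 3 WD + Tributyrin and 3 WD + Vehicle libraries from stranded, poly(A)-selected RNA read as single 50-base reads, and they held 20369746 to 32734485 counts each. The labels number the samples but do not state that each came from a different mouse, so the spread given here is the spread between samples.

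Mitochondrial DNA is transcribed from both strands as long precursor RNAs that cover nearly the whole circle. The tRNAs lie between most of the rRNA and mRNA genes and are cut out by RNase P and by ELAC2, which frees the RNAs on either side. The mRNAs encode core subunits of complexes I, III, IV and V of the respiratory chain, they have almost no untranslated sequence, and their poly(A) tails complete the stop codon where the gene ends with only its first base or bases. The heart is among the tissues richest in these transcripts. In RNA from whole ventricle, fewer cardiomyocytes and less mitochondrial RNA per cell cannot be told apart.

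Several of these genes have near-identical copies in the nuclear genome, which limits what the counts can show. The sequences that follow are from the GENCODE M21 transcripts (GRCm38). The first pair is the start of *mt-Nd3*, a subunit of complex I (chrM:9459-9508, plus strand), and the start of its copy *Gm28438*, an unprocessed pseudogene (chr1:24613070-24613119, minus strand). Capitals mark the base that differs, T3C with positions counted from 1 at the first base of *mt-Nd3*, and it is the only difference over the aligned length. The third sequence is the start of *mt-Co2*, a subunit of complex IV (chrM:7013-7062, plus strand), which has no capitals because the copy *Gm28661* (chr1:24614885-24615565, minus strand) is the same at every aligned base.
mt-Nd3: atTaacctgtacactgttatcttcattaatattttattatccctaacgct
Gm28438: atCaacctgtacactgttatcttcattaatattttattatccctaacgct
mt-Co2: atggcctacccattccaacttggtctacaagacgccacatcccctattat

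Other features of the sequence also bear on counting. *mt-Atp8* and *mt-Atp6*, both subunits of complex V, share 43 bases (chrM:7927-7969, plus strand), and capitals mark the first codon of *mt-Atp6* and the last codon of *mt-Atp8*. *mt-Nd5* and *mt-Nd6* meet end to end on opposite strands over 14 bases (chrM:13552-13565, shown on the plus strand). *mt-Co3* (chrM:9361-9390), *mt-Nd4* (chrM:11515-11544) and *mt-Cytb* (chrM:15259-15288) end with a lone T, in capitals, that only a poly(A) tail can turn into a stop codon.
mt-Atp8/mt-Atp6: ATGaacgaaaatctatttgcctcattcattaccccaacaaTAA
mt-Nd5/mt-Nd6: ttaatctcgagtaa
mt-Co3 end: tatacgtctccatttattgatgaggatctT
mt-Nd4 end: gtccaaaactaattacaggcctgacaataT
mt-Cytb end: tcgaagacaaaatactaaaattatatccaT

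Nearly all mitochondrial counts came from the 2 rRNA genes and 7 of the protein-coding genes, and 6 mRNAs of the heavy-strand transcript were absent or almost absent from the table. *mt-Co2*, *mt-Atp8*, *mt-Atp6* and *mt-Nd4l* were listed at 0 in every library. *mt-Co3* was listed at 2, 0 and 2 counts with vehicle and at 2, 0 and 0 with Tributyrin. *mt-Nd3* was listed at 0, 23 and 16 counts with vehicle and at 0, 0 and 53 with Tributyrin. These genes lie next to each other between *mt-Co1* and *mt-Nd4*, which had at least 1651295 and 395271 counts in each library, so the listed zeros cannot be read as levels. A count of 0 allows at most 1.47e-05% of the counts of the shallowest library when only counting error is considered, and that limit does not apply to reads that were removed before counting.

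Of these 6 mRNAs, 5 have a sequence that occurs again almost whole in the nuclear genome. Each mitochondrial gene was divided into all its overlapping 50-base stretches, the length of a read, and each stretch was searched on both strands of the nuclear transcripts of the annotation. *mt-Co2* shared all of its stretches with a nuclear transcript, *mt-Co3* 99.9%, *mt-Atp6* 99.5%, *mt-Nd4l* 98.8% and *mt-Nd3* 98.0%. *mt-Nd4* shared 62.2% and *mt-Co1* 51.1%. The shares of *mt-Nd2* (8.19%), *mt-Nd5* (7.61%) and *mt-Rnr2* (1.04%) were small, and *mt-Nd1*, *mt-Nd6*, *mt-Cytb* and *mt-Rnr1* shared none. A read that fits several places in the genome equally well has no unique position, and the counter named in the submitters' notes drops such reads by default. *mt-Atp8* was listed at 0 although it shared no stretch with an annotated transcript. In the nuclear copy it would lie between *Gm10925*, which ends at base 24614651 of chromosome 1, and *Gm28661*, which begins at base 24614885, and that unannotated sequence was not analysed here. If reads without a unique position were dropped here, counts for *mt-Co1* and *mt-Nd4* come from part of each gene only. That was not tested.

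**Figure D1:**
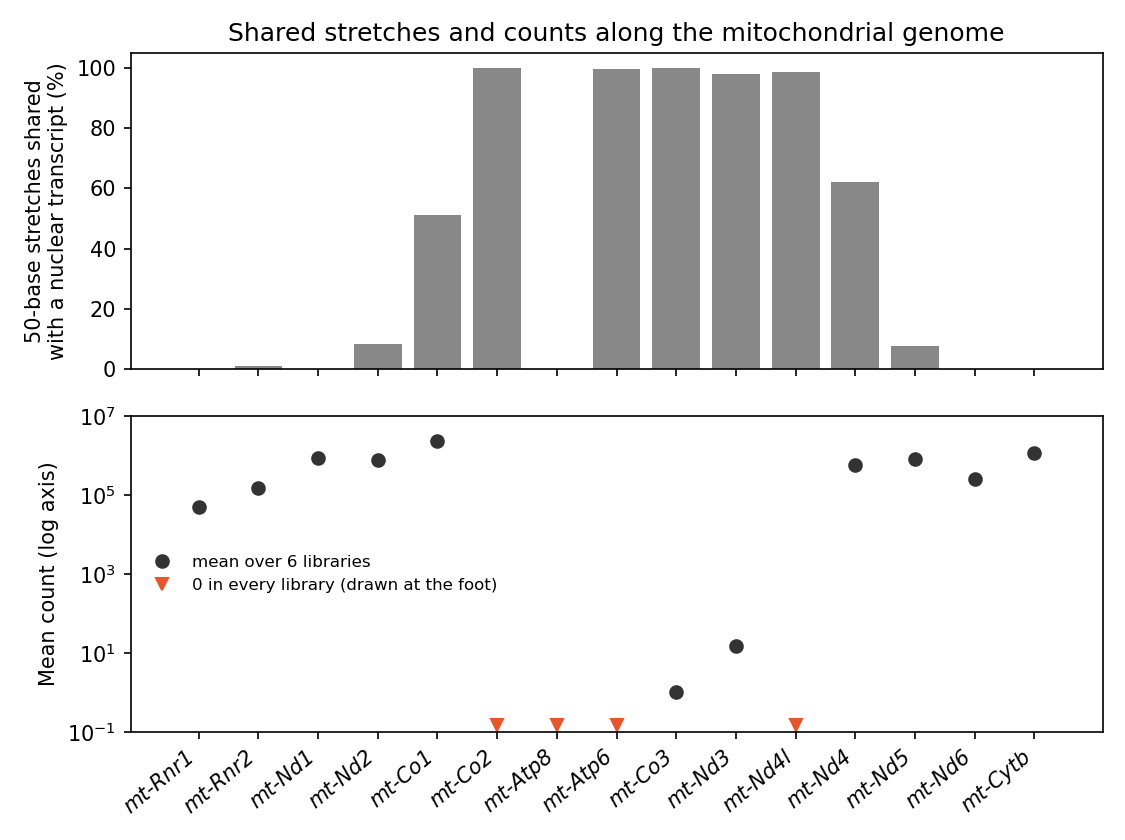
Upper panel: the percentage of 50-base stretches of each mitochondrial rRNA and protein-coding gene, in genome order, that occur in an annotated nuclear transcript. Lower panel: the mean count over the 6 libraries on a log axis, with triangles for genes at 0 in every library. The 5 genes with over 90% of their stretches shared have a mean count under 20 or are at 0, as is *mt-Atp8*, whose bar is at 0.

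The nuclear copies themselves held few counts. Of 15 nuclear genes that shared a 50-base stretch, 14 were in the count files, and the counts summed over these 14 were 347 to 1784 per library. Of the 14, 5 had a mean count of at least 10. *Gm13340*, a copy of *mt-Co1* on chromosome 2, had 213, 211 and 138 counts with vehicle and 242, 219 and 206 with Tributyrin. *Gm13341*, a copy of *mt-Co2*, had 214, 218 and 147 counts with vehicle and 177, 205 and 202 with Tributyrin. *Gm28439*, which equals the first 876 bases of *mt-Nd4*, had 10 to 20 counts in each library. These genes were at similar counts in all 6 libraries, while the other copies with a mean of at least 10, *Gm28438* and *Gm10222*, were not. *Gm28438* had 697, 3 and 27 counts in vehicle libraries 1, 2 and 3 and 1235, 629 and 1 in Tributyrin libraries 1, 2 and 3. *Gm10222*, identical to *mt-Nd4l* over 294 bases, had 112, 1 and 12 counts with vehicle and 99, 102 and 4 with Tributyrin. The libraries rich in *Gm28438* counts were vehicle 1 and Tributyrin 1 and 2, the same 3 in which *mt-Nd3* was at 0. Which base the reads carried at position 3 of *mt-Nd3* cannot be read from counts.

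The tRNA genes were almost unseen. Of 22, 13 were at 0 in every library, and 20 never exceeded 14 counts. *mt-Tp*, the proline tRNA, had 1652, 2124 and 1325 counts with vehicle and 1679, 1655 and 1829 with Tributyrin. *mt-Tc*, the cysteine tRNA, had 309, 361 and 240 counts with vehicle and 325, 443 and 335 with Tributyrin. Both are minus-strand genes next to sequence with no annotated gene, so a 50-base read can touch *mt-Tp* alone from 67 start positions and *mt-Tc* from 51. The other 20 offer 9 to 56 such positions, with *mt-Tn*, the asparagine tRNA, at the upper end and 1 to 10 counts in each library. A tRNA without a poly(A) tail is not selected in this kind of library, so these counts do not measure mature tRNA.

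The mitochondrial genes together took 26.5%, 23.6% and 24.1% of the counts of the vehicle libraries and 27.7%, 25.9% and 28.8% of those of the Tributyrin libraries. Vehicle 1 exceeded Tributyrin 2, so the groups overlapped. The difference of 2.72 percentage points (SE 1.24) between the group means did not pass the exact permutation test (two-sided p = 0.2, where 0.1 is the smallest p that 3 against 3 allows). The 95% Wilson interval of each share was at most 0.0186 percentage points wide on either side, which covers counting error only, so the spread between samples and not depth limits the comparison. *mt-Co1* had the highest count of all genes in every library, and 7 of the 10 highest genes in every library were mitochondrial.

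**Figure D2:**
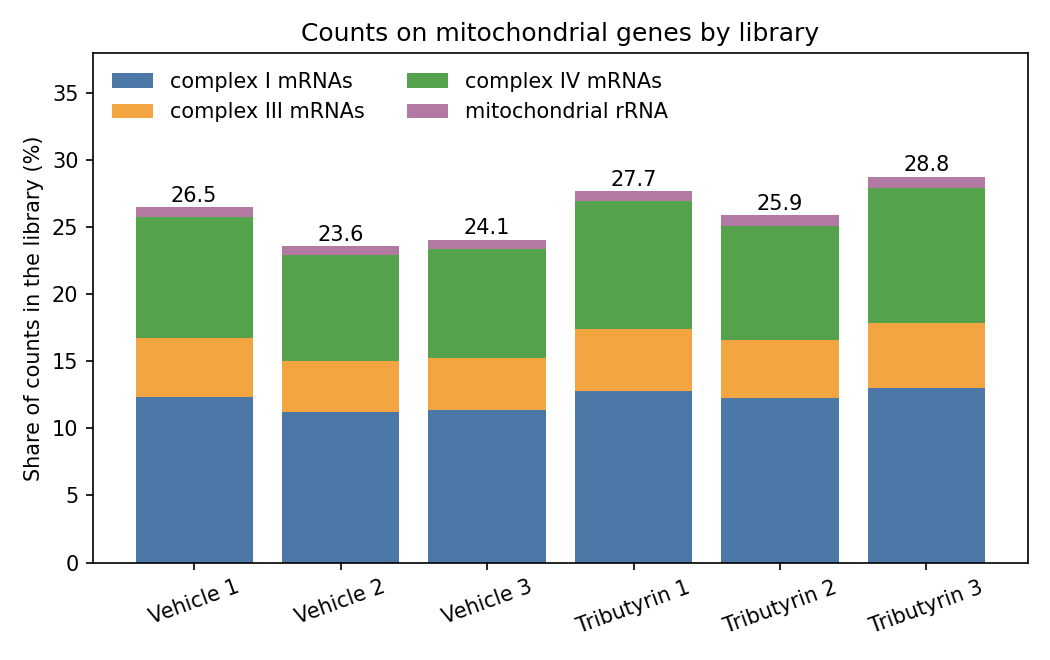
Stacked bars give the share of each library's counts, in percent, on complex I, complex III and complex IV mRNAs and on rRNA of the mitochondrial genome, with the summed share of all 37 genes printed above. Vehicle 1 (26.5%) sits above Tributyrin 2 (25.9%), while Tributyrin 3 has the highest share (28.8%) and vehicle 2 the lowest (23.6%).

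The classes of genes overlapped between groups as the total did. Counts on the 7 complex I genes were 11.7% ± 0.607 (SD, n = 3) of the library with vehicle and 12.7% ± 0.355 with Tributyrin (two-sided exact permutation test, p = 0.2). *mt-Cytb*, the only mitochondrial gene of complex III, took 4.01% ± 0.296 and 4.59% ± 0.287 (exact permutation p = 0.2). The complex IV genes, in effect *mt-Co1*, took 8.36% ± 0.638 and 9.39% ± 0.804 (exact permutation p = 0.2). The 2 rRNAs took 0.690% ± 0.0356 and 0.774% ± 0.0693 (exact permutation p = 0.3), and the tRNAs 0.00780% ± 9.85e-05 and 0.00783% ± 0.00106 (exact permutation p = 1). Means were higher with Tributyrin for every class that had counts, and in each of them the groups overlapped. Over these 6 comparisons the adjusted p was 0.3 for the total and for complexes I, III and IV (Benjamini-Hochberg over the exact permutation tests). Complex V had no counts and could not be compared.

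Of the 37 genes, 12 passed the filter on low counts that left 14133 genes in the test. None was called by edgeR's quasi-likelihood test at a false discovery rate (FDR) of 10%, and neither was any other gene (0% of those tested, at 10% and at 5%). All 12 had a fold change above 1, against 49.6% of all genes tested. With library totals in place of TMM scaling, 11 of the 12 did (not *mt-Tp*), and the median log2 fold change of all genes was -0.07. In the fit with TMM scaling, 7 of the 12 had an unadjusted edgeR p under 0.05 with a higher level with Tributyrin, against 1.97% of all genes. These 7 were *mt-Rnr1*, *mt-Rnr2*, *mt-Nd2*, *mt-Tc*, *mt-Co1*, *mt-Nd4* and *mt-Cytb*. They are not independent observations, since most are cut from the same precursor RNA and much the same libraries were high or low for each. With no filter on low counts, edgeR called 3 mitochondrial genes at an FDR of 10% (*mt-Cytb*, *mt-Nd4* and *mt-Co1*), against 0.653% of the 25581 genes then tested, and *mt-Cytb* alone at 5%, against 0.547%. DESeq2 called 0 mitochondrial genes at 10%, against 0.0848% of all genes with an adjusted p. In 1 of the 12 the groups did not overlap, with Tributyrin higher, against 4.34% of all genes tested. The median log2 fold change of the 8 protein-coding genes tested was 0.22, and that of all genes tested was -0.0013.

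Among the complex I genes, *mt-Nd1* and *mt-Nd2* encode subunits of its proton-pumping membrane arm. The level of *mt-Nd2* in CPM (counts per 1000000 counts of a library, with library totals scaled by the TMM method) was 27810.2, 25546 and 25728 in vehicle libraries 1, 2 and 3 and 29976, 29047 and 32303.5 in Tributyrin libraries 1, 2 and 3. It was the gene whose groups did not overlap, with every Tributyrin library above every vehicle library, and this also held when counts were divided by the library total alone. Its log2 fold change was 0.21 (SE 0.078). *mt-Nd1* was at 32150.3, 30206 and 29618 CPM with vehicle and at 34282, 31559.5 and 37169 with Tributyrin, so that vehicle 1 lay above Tributyrin 2, and its log2 fold change was 0.16 (SE 0.084).

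*mt-Nd4* and *mt-Nd5* encode, like *mt-Nd2*, antiporter-like subunits of the same arm. *mt-Nd4* was at 21862, 18590.2 and 18687 CPM with vehicle and at 23268, 21506 and 26038 with Tributyrin (log2 fold change 0.26, SE 0.097). *mt-Nd5* was at 31913, 26084 and 27336 CPM with vehicle and at 32844, 31626 and 31234 with Tributyrin (log2 fold change 0.17, SE 0.089). In both genes vehicle 1 exceeded at least 1 Tributyrin library. *mt-Nd5* was the only one of the 9 well-counted genes (the 2 rRNAs and the 7 mRNAs with at least 1000 counts in every library) whose highest library was Tributyrin 1 and not Tributyrin 3. *mt-Nd6*, the only mRNA of the light-strand transcript, was at 9787, 7941 and 8309 CPM with vehicle and at 9903, 9326 and 10768 with Tributyrin (log2 fold change 0.20, SE 0.095).

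*mt-Cytb* encodes cytochrome b, the heme-carrying core of complex III. It was at 43441.5, 36568 and 37411 CPM with vehicle and at 47457, 42765 and 51195.5 with Tributyrin. Its log2 fold change was 0.27 (SE 0.097), and the groups overlapped through vehicle 1 and Tributyrin 2. *mt-Co1* encodes the catalytic subunit of complex IV, cytochrome c oxidase, and was at 90742, 75927 and 78068 CPM with vehicle and at 97201, 85217 and 106934 with Tributyrin (log2 fold change 0.24, SE 0.11). Here too vehicle 1 lay above Tributyrin 2.

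The rRNAs *mt-Rnr1* (12S) and *mt-Rnr2* (16S) form the core of the mitochondrial ribosome. *mt-Rnr1* was at 1791, 1487 and 1765 CPM with vehicle and at 1789, 1925 and 2173 with Tributyrin (log2 fold change 0.22, SE 0.097). *mt-Rnr2* was at 5363, 4772 and 5025 CPM with vehicle and at 5327, 5959 and 6661 with Tributyrin (log2 fold change 0.24, SE 0.092). In both, Tributyrin 1 fell inside the vehicle range. Reads aligning to rRNA had been filtered and RNA had been selected by poly(A), so the rRNA counts are what was left after both steps.

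The remaining genes tested were low. *mt-Tc* was at 12.2, 10.6 and 11.3 CPM with vehicle and at 11.6, 15.4 and 14.6 with Tributyrin (log2 fold change 0.28, SE 0.13). *mt-Tp* was at 65.2, 62.5 and 62.6 CPM with vehicle and at 59.7, 57.7 and 79.5 with Tributyrin, so that the highest and the lowest values both came from Tributyrin libraries (log2 fold change 0.05, SE 0.11). *mt-Nd3*, with its 0 to 53 counts, had a log2 fold change of 0.57 with an SE of 1.30. Adjusted edgeR p-values of all 12 genes were 0.999.

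**Figure D3:**
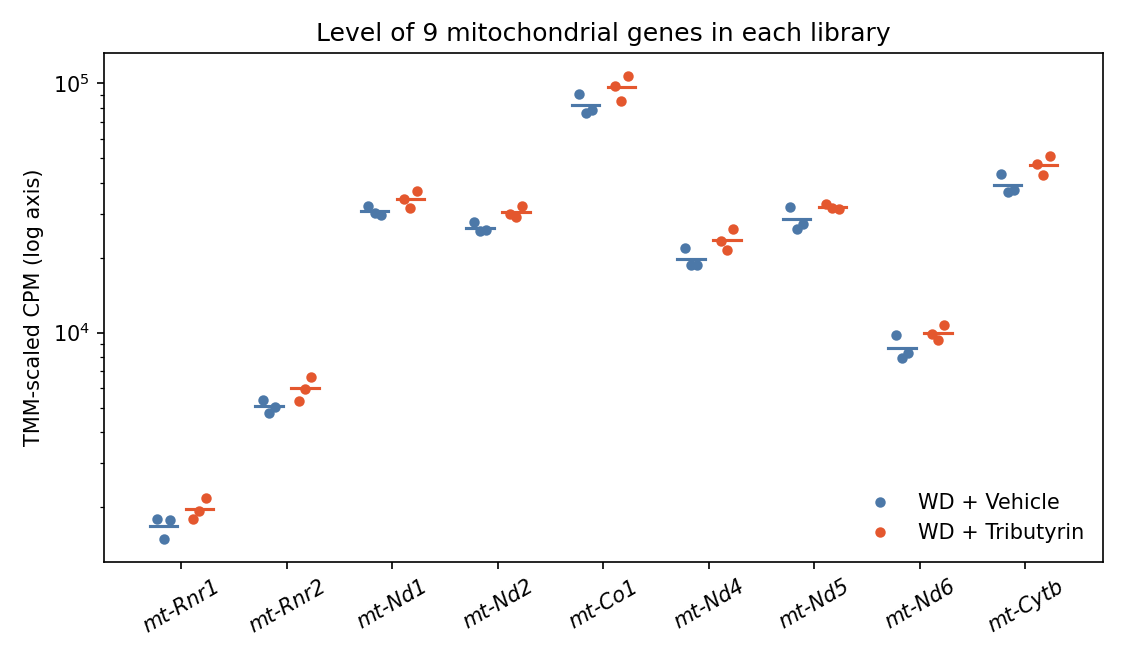
Points give the TMM-scaled CPM, on a log axis, of the 9 mitochondrial rRNA and protein-coding genes with at least 1000 counts in every library, left to right in genome order and, within each group, libraries 1 to 3, and lines give group means. Group means are higher with Tributyrin for each gene, and points overlap between groups for all but *mt-Nd2*.

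Across these 9 well-counted rRNA and protein-coding genes the samples kept much the same order. Vehicle 2 was the lowest library for 8 of them and vehicle 3 for *mt-Nd1*, while Tributyrin 3 was the highest for 8. Vehicle 1 was above Tributyrin 2 for 6 of the 9, namely *mt-Nd1*, *mt-Nd4*, *mt-Nd5*, *mt-Nd6*, *mt-Cytb* and *mt-Co1*. With library totals in place of TMM scaling, the log2 fold changes of the 9 genes fell from between 0.16 and 0.27 to between 0.09 and 0.20, and the median of all genes moved to -0.07.

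**Figure D4:**
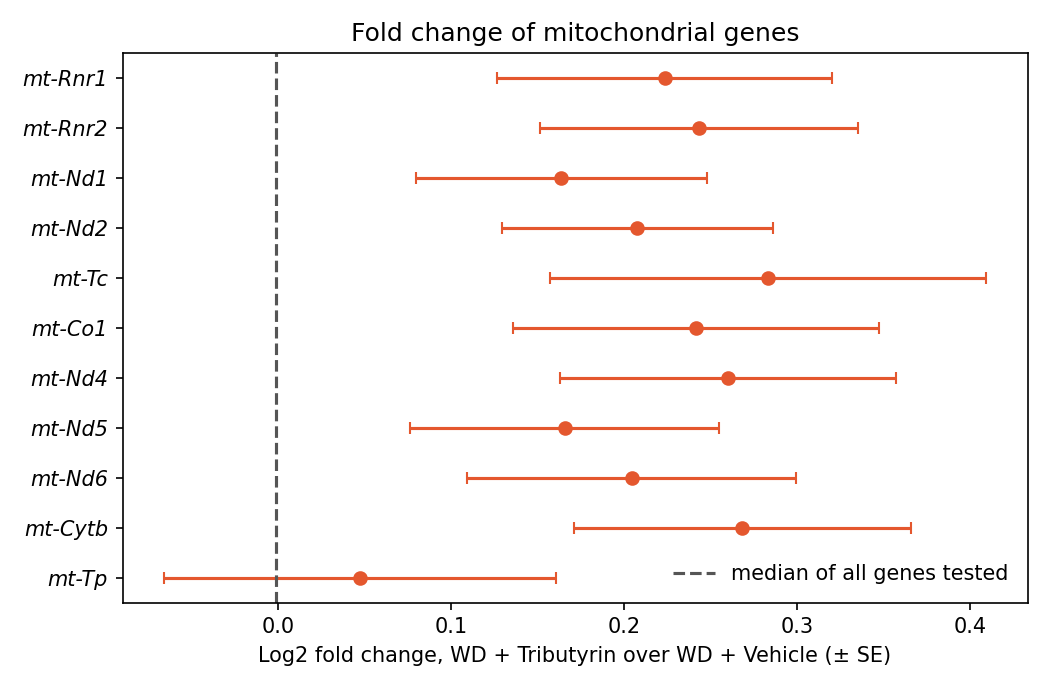
Points give the log2 fold change of WD + Tributyrin over WD + Vehicle from edgeR for 11 mitochondrial genes in genome order, and bars give its SE; *mt-Nd3* (0.57, SE 1.30) is left off. Every point is right of the dashed line, the median of all genes tested (-0.0013), and *mt-Tp* lies within 1 SE of it.

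The 9 rRNA and protein-coding genes with at least 1000 counts in every library spanned a far wider range of levels than the groups did. Neighbours within that range could lie closer together than the group means of a gene. For this comparison, CPM was divided by a number of start positions and is given per 1000 such positions. From each of them a 50-base read lies inside the gene, overlaps no other gene and has no nuclear match. Reads with a nuclear match are thereby taken as not counted, which was not tested. *mt-Co1* stood highest at a mean of 121771 over the 6 libraries, with its lowest library (103867) above every library of the other 8 genes. *mt-Nd4* (43144), *mt-Cytb* (39397), *mt-Nd1* (35869) and *mt-Nd2* (31348.5) came next, and along that order each gene's range overlapped that of the next. *mt-Nd6* (20479.8) and *mt-Nd5* (18556.5) also overlapped each other and lay below *mt-Nd2*. *mt-Rnr2* (3637) and *mt-Rnr1* (2011) were the lowest of the 9 and did not overlap with each other or with the 7 mRNAs. Since rRNA reads were filtered and RNA was selected by poly(A), this does not place rRNA below mRNA in the tissue. The tRNAs and *mt-Nd3*, with few start positions inside the gene, were not placed in this order. The order was the same in the vehicle means and the Tributyrin means. Division by the whole gene length instead moved *mt-Nd4* from rank 2 to rank 7, since 62.2% of its stretches are shared, and left *mt-Co1*, *mt-Rnr2* and *mt-Rnr1* at their ranks.

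The share of each gene within the mitochondrial counts tests whether single genes moved apart from the rest. The 9 genes together held 99.97% of mitochondrial counts in every library. *mt-Cytb* was 16.4%, 16.1% and 16.1% of mitochondrial counts with vehicle and 16.8%, 16.5% and 16.8% with Tributyrin. Its groups did not overlap, and the difference of 0.509 percentage points (SE 0.140) gave the smallest p the design allows, 0.1 (two-sided exact permutation test). For the other 8 genes the groups overlapped, and their exact permutation p-values were between 0.2 and 1. *mt-Co1* was 33.4% to 34.3% of mitochondrial counts with vehicle and 32.9% to 35.1% with Tributyrin. *mt-Nd1* ranged from 12.1% to 13.3% with vehicle and lay at 12.2% in each Tributyrin library. Over these 9 shares the adjusted p is 0.9 for *mt-Cytb* by the Benjamini-Hochberg method.

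*mt-Nd6* allows the light-strand transcript to be set against the heavy-strand one. The log2 ratio of *mt-Nd6* counts to the summed counts of the 12 heavy-strand mRNAs was -4.66, -4.74 and -4.71 with vehicle and -4.74, -4.70 and -4.73 with Tributyrin. The difference was -0.017 (SE 0.027, exact permutation p = 0.7). The sum in effect lacks *mt-Co2*, *mt-Atp8*, *mt-Atp6*, *mt-Nd4l*, *mt-Co3* and *mt-Nd3*, which were absent or almost absent from the counts. The value is therefore not the ratio of the mRNAs of the strands. The ratio depends on strand being kept in counting. Of 266 other genes whose exons lie wholly inside exons of opposite-strand genes, 0.752% had a mean count of at least 10, against 24.6% of 36033 genes of the same types that overlap no other gene. Of 196 genes inside exons on the same strand, 0% did. Whether the genes inside opposite-strand genes are expressed in these hearts was not tested, so this comparison does not settle whether strand was used in counting. If it was not, *mt-Nd6* counts include RNA of the strand opposite the gene.

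Respiratory complexes I, III, IV and V also hold subunits encoded in the nucleus, made in the cytosol and imported. Of 76 such genes, 75 were tested, none was called by edgeR at an FDR of 10%, 4 had an unadjusted p under 0.05 (all higher with Tributyrin, 1.97% of all genes), and 73 had a log2 fold change above 0 with a median of 0.11. With library totals in place of TMM scaling, 61 of the 75 were above 0 and the median was 0.03. The gene not tested was *Atp5o* of complex V, listed at 0 in every library, and whether that is its level was not tested. In complex I 35 of 36 genes were above 0 with a median log2 fold change of 0.10, between *Ndufa11* (-0.0013, SE 0.092) and *Ndufb4* (0.21, SE 0.15). In complex III all 9 were above 0 with a median of 0.13, between *Uqcrfs1*, the Rieske iron-sulfur subunit (0.04, SE 0.083), and *Uqcrb* (0.17, SE 0.090). In complex IV 13 of 14 were above 0 with a median of 0.12, between *Cox6a1* (-0.07, SE 0.082) and *Cox6c* (0.20, SE 0.099). In complex V all 16 tested were above 0 with a median of 0.13, between *Atp5g1*, a gene of the membrane c-ring (0.06, SE 0.084), and *Atp5e*, the epsilon subunit (0.23, SE 0.10). These signs are with TMM scaling, and *Uqcrfs1* and *Atp5g1* turned with library totals.

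The log2 ratio of mitochondrial to nuclear counts was compared within each complex. For complex III, *mt-Cytb* held 7.30, 6.52 and 6.60 times the summed counts of the nuclear subunits with vehicle and 7.70, 7.88 and 7.71 times with Tributyrin. The groups did not overlap, and the log2 ratio was 0.19 higher (SE 0.053), with the smallest exact permutation p possible, 0.1. For complex I the ratio was 11.4, 10.4 and 10.7 with vehicle and 11.4, 12.1 and 11.3 with Tributyrin (log2 difference 0.10, SE 0.053, exact permutation p = 0.3). For complex IV it was 12.7, 11.3 and 11.5 with vehicle and 12.6, 12.6 and 12.9 with Tributyrin (0.11, SE 0.054, exact permutation p = 0.3). In complexes I and IV vehicle 1 lay within the Tributyrin range. Over the 4 ratios, that of the strands included, the adjusted p for complex III was 0.4 (Benjamini-Hochberg over the exact permutation tests). The numerators lack *mt-Nd3*, *mt-Nd4l*, *mt-Co2* and *mt-Co3*, so these ratios are not the ratio of the subunits' mRNAs, and complex V has no ratio. Of the mitochondrial to nuclear ratios, that of complex I turned to -0.04 when mean log2 CPM replaced summed counts. Into that mean *mt-Nd3*, almost absent from the summed counts, enters as a full gene, and the mean without it was not tested.

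**Figure D5:**
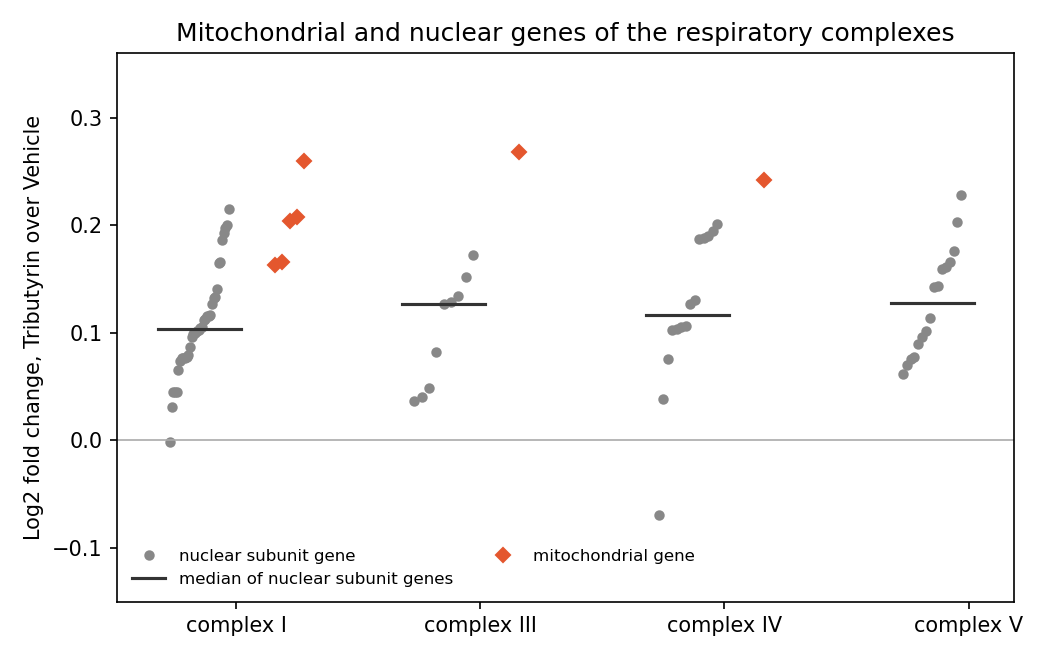
Log2 fold changes of WD + Tributyrin over WD + Vehicle by respiratory complex, with circles for nuclear subunit genes, a line at their median and diamonds for mitochondrial genes, leaving out *mt-Nd3*. The diamonds of complexes III and IV lie above every circle of their complex, those of complex I lie above its median (0.10), and complex V has no diamond.

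The nuclear genes that transcribe, process, stabilise and degrade mitochondrial RNA and replicate its DNA were taken as a list. Of 47, 45 were tested. edgeR called 0 of them at an FDR of 10% and none had an unadjusted p under 0.05, against 4.25% of all genes in either direction. With TMM scaling 27 were above 0 and 18 below, with a median log2 fold change of 0.03, and with library totals 15 were above 0. *Polrmt*, the mitochondrial RNA polymerase, had a log2 fold change of -0.02 (SE 0.082), and the promoter factors *Tfam* and *Tfb2m* had -0.03 (SE 0.082) and 0.07 (SE 0.079). *Tefm*, the elongation factor, had -0.12 (SE 0.099). For RNA stability, *Lrpprc*, which keeps mitochondrial mRNAs polyadenylated, had -0.03 (SE 0.069), and *Mtpap*, the poly(A) polymerase, had 0.04 (SE 0.10). *Slirp*, the partner of *Lrpprc*, was listed at 0 or 1 count in each library and did not pass the filter. Whether that count is its level was not tested. *Pnpt1* and *Supv3l1*, the nuclease and helicase of the degradosome, had -0.0017 (SE 0.099) and 0.02 (SE 0.090). *Twnk*, the replicative helicase, had 0.02 (SE 0.075) and *Polg*, the replicative polymerase, -0.08 (SE 0.073). The sign of 8 of these 10 estimates turned under another processing choice or with a library left out. The list's highest and lowest estimates, named outside the rule after their values were seen, were those of the termination factor gene *Mterf1a* (0.53, SE 0.38), whose reads may be split with its paralog *Mterf1b*, and the coactivator *Ppargc1b* (-0.29, SE 0.20).

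Markers of cell types were read beside these results, since mitochondrial RNA is most abundant in cardiomyocytes. The summed level of 9 ventricular cardiomyocyte markers was 68563 to 70593 CPM with vehicle and 67630 to 71558 with Tributyrin. Of these 9, *Tnnt2* (log2 fold change 0.23, SE 0.093), *Tnni3* (0.21, SE 0.081) and *Pln* (0.24, SE 0.079) were higher at an unadjusted edgeR p under 0.05, against 1.97% of all genes. *Actc1* (-0.21, SE 0.093) was lower at that p, against 2.28%. The groups of *Tnni3* and *Pln* did not overlap, with Tributyrin higher, against 4.34% of all genes tested. *Myh6* (-0.08, SE 0.099), *Myl2* (0.07, SE 0.079), *Myl3* (0.05, SE 0.083), *Ryr2* (0.04, SE 0.11) and *Atp2a2* (0.05, SE 0.078) made up the rest. The median log2 fold change of the 9 was 0.05, and none of them was called at an FDR of 10%. Of 7 atrial markers, 6 were tested and all 6 had lower estimates with Tributyrin, 5 with an unadjusted edgeR p under 0.05 against 2.28% of all genes that were lower. Their summed level was 200, 191 and 66.0 CPM with vehicle and 33.6, 68.8 and 57.4 with Tributyrin, and *Bmp10* was at 0 or 1 count. The groups of the atrial marker *Dkk3* (-1.47, SE 0.40) did not overlap, with vehicle higher. The share of all genes with vehicle higher and no overlap was not computed. Summed fibroblast markers were at 866 to 978 CPM with vehicle and 776 to 960 with Tributyrin. Of the 7 fibroblast genes 2 were lower at an unadjusted edgeR p under 0.05, against 2.28% of all genes, namely *Col1a1* (-0.46, SE 0.17) and *Lum* (-0.31, SE 0.078). The groups of *Lum* did not overlap, with vehicle higher. The 6 endothelial, 6 macrophage, 5 red blood cell, 3 smooth muscle and 2 Schwann cell markers had no member lower at that p, and their summed levels overlapped between groups. *Myh11*, a smooth muscle myosin (0.59, SE 0.17), and *Lyz2*, a macrophage lysozyme (0.17, SE 0.074), were higher at that p, against 1.97% of all genes. Their groups did not overlap, with Tributyrin higher, against 4.34% of all genes tested. Adipocyte and skeletal muscle markers summed to at most 2.47 CPM in any library. The part of cell makeup in the mitochondrial levels was not tested.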

How the data were processed

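The data are the read counts per Ensembl gene that the authors deposited, without normalization, for 6 libraries. Per the study's methods, adapters were trimmed, poor and rRNA-aligning reads were removed, and the rest were placed on the genome by STAR and assigned to genes by htseq-count. The submitters' processing notes name mm10, cutadapt 1.13, HTSeq 0.6.1p1 and DESeq2 1.14.1. No source used here states the annotation release or the strand setting.

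Genes were named from GENCODE M21 (GRCm38). No count was on a line naming no gene, and no pair of libraries agreed within sampling noise (chi-square per degree of freedom 7.404 to 31.84). The fit used edgeR 4.0.16 (R 4.3.3): TMM scaling, filterByExpr (minimum count 10, minimum total 15), quasi-likelihood test, Benjamini-Hochberg adjustment over 14133 genes, FDR of 10%, no covariate. It was tested on simulated data. The SE of an edgeR log2 fold change is its absolute value divided by the square root of the quasi-likelihood F statistic. Shares and ratios were compared with two-sided exact permutation tests (scipy 1.17.1). Alternatives were DESeq2 size factors, library totals, nuclear genes alone for scaling, no filter, a mean CPM of at least 5, DESeq2 1.42.0, limma-voom (limma 3.58.1), a robust prior, the replicate number as a block, other denominators, and leaving out each library. All members past the filter are named, others are given by counts, of the nuclear subunits the extremes of each complex are named, and of the list for mitochondrial gene expression fixed names and any gene with an unadjusted p under 0.05. Marker genes and the extremes of the latter list were named after their values were seen. Members and lists were chosen with earlier results of these data known.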

Additional observations from a re-analysis of the deposited data

How the results depend on the processing

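No mitochondrial gene was called at an FDR of 10% or 5% in the fit described or in any alternative except edgeR without the filter on low counts. That fit called 3 at 10% and 1 at 5%, among 167 of 25581 genes called at 10%. The 3 were *mt-Cytb* (log2 fold change 0.27, adjusted p = 0.0391), *mt-Nd4* (0.26, adjusted p = 0.0726) and *mt-Co1* (0.25, adjusted p = 0.0976), and the cause was not tested. Over all 15 alternatives the log2 fold changes of the 9 well-counted genes stayed between 0.09 and 0.36, and the median of the mitochondrial mRNAs between 0.15 and 0.29. The difference in mitochondrial share ranged from 2.06 to 3.62 percentage points when a library was left out. It was 1.41 over the genes with under 10% of stretches shared and 2.73 with the nuclear copies added, both chosen after seeing the data. The value of 1.41 is the difference of a smaller share. It leaves out *mt-Co1* and *mt-Nd4*, which held means of 33.8% and 8.16% of mitochondrial counts with vehicle. *mt-Tp* turned to -0.029 with library totals and ranged from -0.11 (without Tributyrin 3) to 0.13 when a library was left out. *mt-Nd3* turned to -1.34 in limma-voom and -0.074 in the block, and ranged from -6.73 (without Tributyrin 3) to 1.20 when a library was left out. The tRNA share difference ranged from -0.000576 to 0.000405 when a library was left out. The light to heavy strand ratio turned to 0.11 with mean log2 CPM and ranged from -0.037 to 0.0042 when a library was left out. Complex I's mitochondrial to nuclear ratio turned to -0.036 with mean log2 CPM. In both ratios *mt-Nd3* enters mean log2 CPM as a full gene. Complex V could not be given under any alternative.

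Among the nuclear genes named, the log2 fold change turned with library totals for *Tfb2m* (-0.0014), *Mtpap* (-0.034), *Supv3l1* (-0.058), *Twnk* (-0.057), *Uqcrfs1* (-0.038) and *Atp5g1* (-0.014), and without the filter for *Pnpt1* (0.0026) and *Ndufa11* (0.0026). When a library was left out it ranged from -0.069 to 0.031 for *Polrmt*, from -0.073 to 0.026 for *Tfam*, from -0.068 to 0.014 for *Lrpprc*, from -0.042 to 0.082 for *Mtpap*, from -0.077 to 0.088 for *Pnpt1*, from -0.030 to 0.10 for *Supv3l1*, from -0.011 to 0.060 for *Twnk*, from -0.094 to 0.090 for *Ndufa11*, from -0.025 to 0.12 for *Uqcrfs1* and from -0.022 to 0.13 for *Atp5g1*. Without the filter *Myh11* was called (0.59, adjusted p = 3.7e-07).

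The replicate numbers pair no samples by the labels, and same-numbered samples had correlations of deviations of 0.2144, 0.0375 and 0.0147. With the replicate block, edgeR called 0 mitochondrial genes, the block gave a mean share difference of 2.72 percentage points (exact sign-flip p = 0.25, the smallest possible), and no call of a mitochondrial gene changed.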

Other observations

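The libraries rich in counts on the *mt-Nd3* copy *Gm28438* had mitochondrial shares of 26.5% (vehicle 1), 27.7% (Tributyrin 1) and 25.9% (Tributyrin 2), and the libraries with 27 counts or fewer had 23.6% (vehicle 2), 24.1% (vehicle 3) and 28.8% (Tributyrin 3). Vehicle 1 is the library that lay above Tributyrin 2 for 6 of the 9 well-counted genes. The sets were seen in the data and are not groups of the study, so no test was made, and which base these mice carry at the position of T3C was not tested.

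Summed atrial markers were highest in vehicle 1 (200 CPM) and vehicle 2 (191 CPM), which had the highest and the lowest mitochondrial share of the vehicle libraries.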
